A study of Arabidopsis thaliana with 2 samples.

Results

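The UDP-glycosyltransferases named UGT are a large plant gene family, and 45 of its genes are described here on 2 Affymetrix arrays of Arabidopsis seedlings. A gene was taken if a probe set that names it alone carries a symbol made of UGT and a number. UGT78D1 and UGT78D2 were left out of the 45. All 45 genes had 1 such probe set each, out of 13286 genes with a single-gene probe set that could be matched to the RefSeq gene table. RefSeq lists 58 Arabidopsis genes with a UGT number as their symbol, and the 11 without a single-gene probe set, among them UGT74F2, UGT84A2, UGT75B1 and UGT85A1, were not analysed here.

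The RNA of both arrays came from Col-0 seedlings, 7 days old and untreated, that had grown on a medium with sucrose and had each been genotyped by PCR before extraction. The seedlings of one array, the double expressor, carry AD-HIFCOOD and GBD-pVHL. Those of the other, the triple expressor, carry AD-HIFCOOD, GBD-pVHL and PHD3, so both genotypes share the first pair of transgenes and differ by PHD3. In animals PHD3 uses oxygen to hydroxylate prolines of the transcription factor HIF, and pVHL binds the hydroxylated form. No array of untransformed seedlings was among the samples, and the sources used here do not state the promoters of the transgenes, the number of lines or the number of seedlings per array. The comparison asks how UGT transcripts differ between sensor seedlings with and without PHD3.

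A UGT moves the sugar of an activated UDP-sugar, usually UDP-glucose, onto a small molecule such as a hormone, a phenolic acid, a flavonoid or a foreign compound. The conjugate is usually more soluble, and often less active, than the free molecule and can be stored in the vacuole, and beta-glucosidases can release the free molecule again. The number in the symbol gives the family by protein similarity, the letter the subfamily and the last number the gene, and many genes of a subfamily lie side by side on a chromosome.

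The deposited values are log2 expression levels made by the authors with RMA, which sets both arrays to one distribution and summarises each probe set. A difference below is the log2 level in the triple expressor less that in the double expressor, and each fold is taken from it. Since each genotype has 1 array, nothing could be tested and no p-value is given. All differences compare these 2 arrays, and their number limits the precision. Probe sets differ in brightness for the same amount of RNA, so levels are compared between arrays and not between genes. As a scale for single genes, the spread at a gene's level is 0.5 of the central 68% range of the differences of all genes with a like mean level. It lay between 0.13 and 0.27 for the UGT genes. A mean level under 5.71, the 40th percentile of all values, is called low. Genes are counted as lower or higher by a set amount when they are at least 0.32 apart on the log2 scale, a ratio of 5 to 4. The family was taken up because an earlier look at these same arrays had shown it shifted downwards, so the direction of its differences is a description and not independent evidence.

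Of the 45 UGT genes, 33 were lower in the triple expressor, 10 were higher and 2 were exactly equal on both arrays. The median difference was -0.17, and the interquartile range ran from -0.29 to 0.0. Over all 13286 genes 50.3% were lower and 47.9% higher, with a median of -0.0034 and an interquartile range from -0.14 to 0.13. Lower by at least 0.32 were 9 UGT genes, or 20%, where 6.51% of all genes were. Higher by at least 0.32 were 2 UGT genes, or 4.44%, where 6.79% of all genes were. At 1.5-fold 1 UGT gene was lower and 2 were higher, against 0.527% and 1.16% of all genes, and no UGT gene was 2-fold apart, as 0.0978% of all genes were upwards and 0.0452% downwards.

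**Figure D1:**
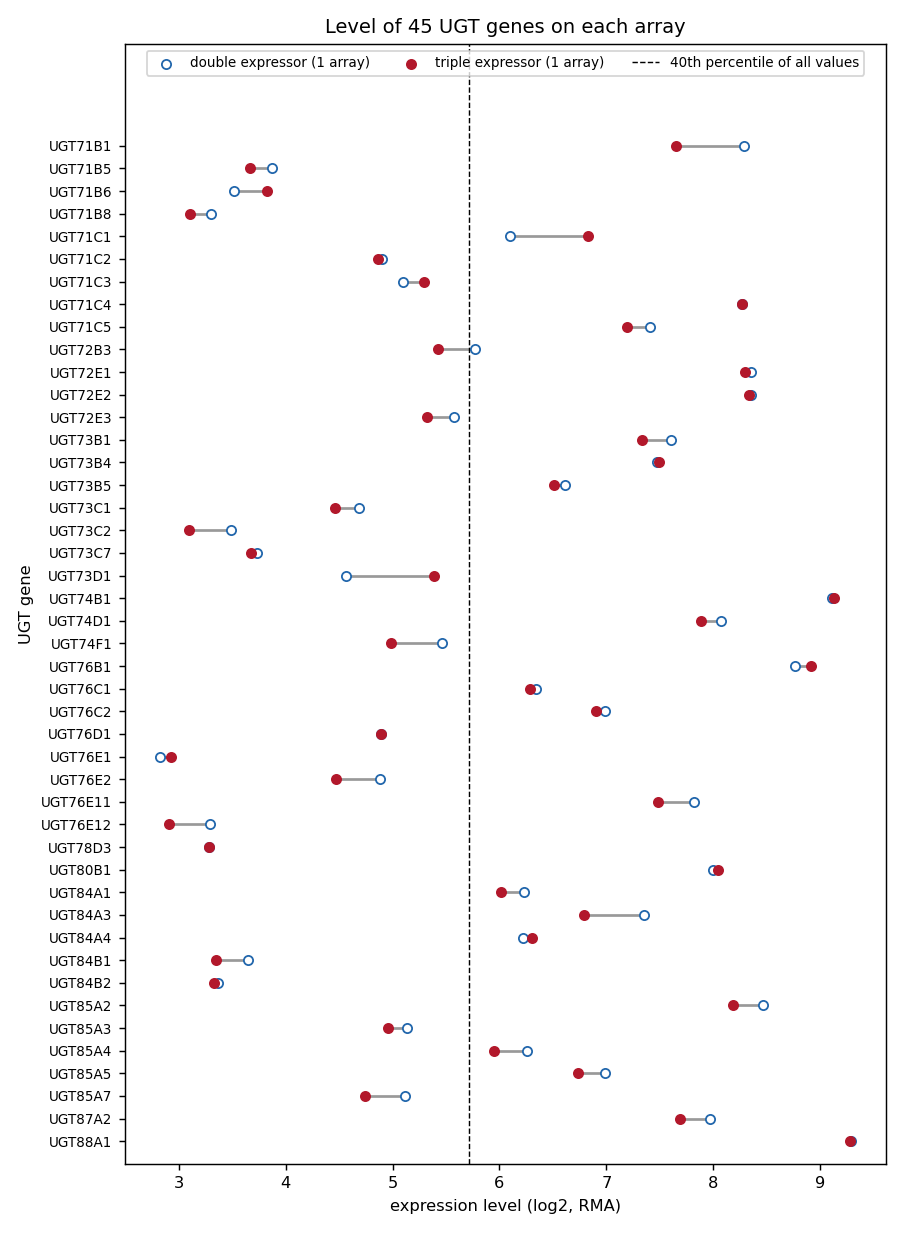
Level of each of the 45 UGT genes (log2, RMA, horizontal axis) in the double expressor (open blue circle) and the triple expressor (filled red circle), 1 array each, with a grey line joining them. The red circle lies to the left of the blue one for 33 genes, and 21 genes have a mean level left of the dashed line at 5.71.

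Differences were also set against the spread at each gene's level. The difference was within that spread for 24 UGT genes, below it for 18 and above it for 3. Among all genes 16.6% lay below their spread and 15.7% above it. More than 2 times the spread downwards were 4 UGT genes, UGT71B1, UGT84A3, UGT73C2 and UGT76E12, and 2 were more than 2 times the spread upwards, UGT71C1 and UGT73D1. Over all genes those shares were 2.81% and 3.54%. Differences of low genes depend on the scale: with 32 added to the unlogged values, which damps small levels, UGT71B1 and UGT84A3 stayed lower by at least 0.32, at -0.57 and -0.46, and the other 7 of the 9 lower genes did not. UGT71C1 and UGT73D1 stayed higher by at least 0.32 on that scale, at 0.54 and 0.41, and the median of the 45 genes was -0.074. Of all 13286 genes, 187 were lower and 381 higher by at least 0.32 on that scale. UGT73C2, UGT76E12, UGT76E2, UGT74F1, UGT85A7 and UGT72B3 were at -0.093, -0.080, -0.18, -0.26, -0.19 and -0.21 on it, and UGT76E11, which is not low, at -0.29.

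On the log2 scale as deposited, the downward shift was smaller for probe sets of higher mean level, which was not so with 32 added to the unlogged values. The 15 genes of highest mean level, from 7.30 to 9.29, had a median of -0.058 with 11 lower. The median of the 15 in the middle was -0.17 and that of the 15 lowest -0.20, again with 11 lower in each. All genes in the same 3 ranges of level had medians of 0.013, 0.018 and -0.037, in the same order. With 32 added, the UGT medians were -0.053, -0.088 and -0.044 in that order. Of the 24 UGT genes whose mean level was at or above 5.71, 18 were lower, with a median of -0.10. Among all genes in that range 46.5% were lower, with a median of 0.015. Of the 21 low UGT genes 15 were lower, and their median was -0.20. Among all low genes 54.8% were lower, with a median of -0.034.

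**Figure D2:**
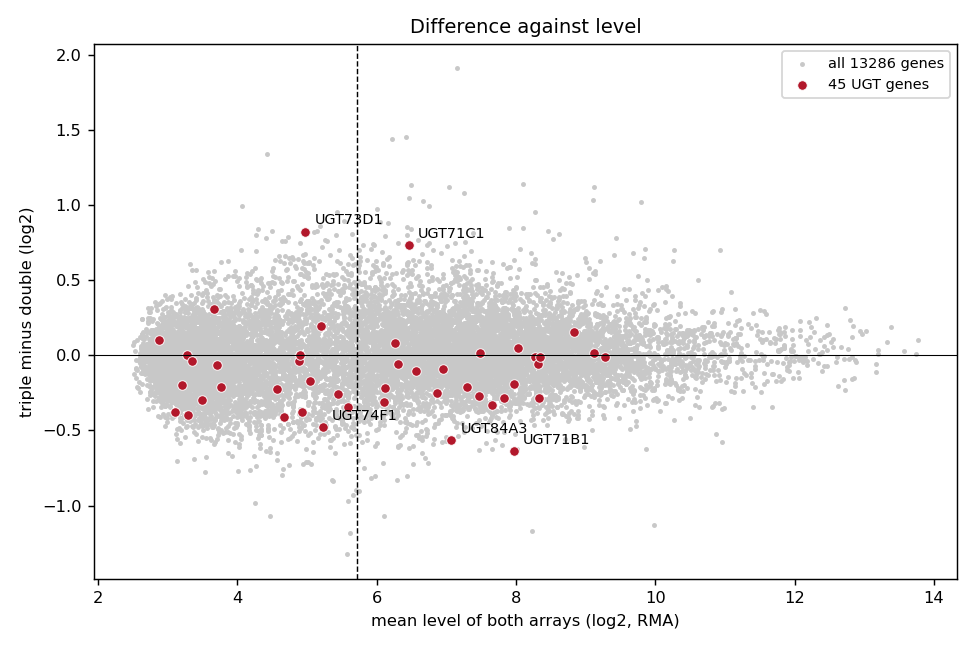
Difference of each gene, triple minus double (log2, vertical axis), against its mean level on both arrays (log2, horizontal axis), for all 13286 genes in grey and the 45 UGT genes in red. The dashed line marks 5.71. UGT73D1 and UGT71C1 lie at 0.82 and 0.74, and UGT71B1 and UGT84A3 at -0.64 and -0.56.

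The UGT85 family was lower in all 5 of its genes. It holds the UGT85A enzymes, of which UGT85A1, not analysed here, attaches glucose to the cytokinin zeatin. UGT85A2 went from 8.47 in the double expressor to 8.18 in the triple, UGT85A4 from 6.26 to 5.95 and UGT85A5 from 6.99 to 6.74. These 3 genes, the family's members above the low range, differed by -0.29, -0.31 and -0.25. The low gene UGT85A7 was at 5.12 and 4.74, 1.30-fold lower, and was the one member lower by at least 0.32. UGT85A3, also low, was at 5.13 and 4.96. The family's median was -0.29, with the smallest range of the 7 families that had at least 3 genes, from -0.38 to -0.17.

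The UGT84 family was lower in 4 of 5 genes, with a median of -0.21. Its UGT84A enzymes make glucose esters of hydroxycinnamic acids, the activated form from which sinapate esters are built. UGT84A3 was at 7.35 on the double and 6.79 on the triple array, a 1.48-fold lower level. Of its neighbours on chromosome 4, UGT84A1 went from 6.23 to 6.01, and UGT84A4 from 6.22 to 6.30, a difference of 0.080. UGT84B1, which makes the glucose ester of the auxin indole-3-acetic acid, was low on both arrays, at 3.65 and 3.35. UGT84B2, its neighbour, was at 3.36 and 3.33.

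All 4 genes with a UGT72 symbol were lower, with a median of -0.16, and they differed in size. The UGT72E enzymes add glucose to monolignols and their aldehydes, the building blocks of lignin. UGT72E1, whose preferred substrate is coniferyl aldehyde, was at 8.35 and 8.29, and UGT72E2, the main coniferyl alcohol enzyme, at 8.35 and 8.34. Their differences were -0.058 and -0.013. UGT72E3, a monolignol enzyme with a low level, went from 5.57 to 5.32. UGT72B3, a homologue of the enzyme UGT72B1 that conjugates chlorinated phenols and anilines, went from 5.77 to 5.42, 1.27-fold lower. Together, 5 of 6 named genes for phenolic acid esters and monolignol glucosides were lower, where 50.3% of all genes were, with a median of -0.14, and UGT84A3 was the one lower by at least 0.32. Over the 5 that were not low the median was -0.058.

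The UGT74 family had 3 measured genes, 2 of them lower and 1 higher, with a median of -0.19. UGT74F1, one of the pair of enzymes that attach glucose to salicylic acid, went from 5.46 to 4.99 and was 1.39-fold lower at a low level. UGT74D1, which acts on oxidised indole-3-acetic acid, was at 8.07 and 7.88, a difference of -0.19. UGT74B1, which makes desulfoglucosinolates in glucosinolate synthesis, was at 9.11 and 9.13. Its difference of 0.015 was within the spread of 0.17 at its level.

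The 8 genes of the UGT76 family differed in direction and size. Of the 4 UGT76E genes, 3 were lower by at least 0.32, where 6.51% of all genes were. UGT76E2 went from 4.88 to 4.47, UGT76E12 from 3.29 to 2.91 and UGT76E11 from 7.82 to 7.49. On the scale that damps small levels none of these 3 stayed lower by at least 0.32, at -0.18, -0.08 and -0.29. UGT76E11 was the one of them above the low range, since UGT76E2, UGT76E12 and UGT76E1 were low. UGT76E1, which glucosylates the hydroxylated jasmonate 12-hydroxy-jasmonic acid, was at 2.82 and 2.92. The cytokinin N-glucosyltransferases UGT76C1 and UGT76C2 differed by -0.055 and -0.093, from 6.34 to 6.28 and from 6.99 to 6.90. UGT76B1, an immune regulator that glucosylates isoleucic acid, salicylic acid and N-hydroxypipecolic acid, had the most positive difference of the family, 0.15, at 8.76 on the double and 8.91 on the triple array. UGT76D1, which acts on dihydroxybenzoic acids, was at 4.89 on both arrays. The family's median was -0.074.

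The UGT73 genes were lower in 5 of 7 cases and included the largest difference of all UGT genes on the log2 scale as deposited. UGT73D1 was at 4.56 on the double array and 5.39 on the triple array, and was 1.77-fold higher at a low mean level. UGT73C2 went from 3.49 to 3.09 and was 1.32-fold lower. Its neighbour UGT73C1, which O-glucosylates cytokinins and conjugates the explosive TNT, was at 4.68 and 4.46. UGT73C7, which lies next to UGT73D1 and glucosylates phenylpropanoids, was at 3.73 and 3.67. All 4 of these genes were low. In the brighter UGT73B group, UGT73B1 went from 7.61 to 7.34, UGT73B5 from 6.61 to 6.51 and UGT73B4 from 7.48 to 7.49. UGT73B4 and UGT73B5 conjugate foreign compounds such as TNT. Among the 3 genes listed for foreign compounds, UGT73C1, UGT73B5 and UGT73B4, none was 0.32 apart.

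The UGT71 family had 9 genes and spread the widest of the 7 families with a median, from -0.64 to 0.74, around a median of -0.039. UGT71B1 had the most negative difference of all 45 genes, at 8.29 on the double and 7.65 on the triple array, and with a 1.56-fold lower level it was the only one past 1.5-fold downwards. UGT71C1, an enzyme active on flavonoids and lignans, was 1.67-fold higher, at 6.10 and 6.83. UGT71C2, the gene beside it, was at 4.90 and 4.86. UGT71C4 was at 8.27 on both arrays to 2 decimals, and its neighbour UGT71C3, which glucosylates methyl salicylate, was at 5.10 and 5.29. UGT71B5 was at 3.87 and 3.66.

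The abscisic acid glucosyltransferases of UGT71 went both ways. UGT71C5, the only one of the 3 measured above the low range, went from 7.40 to 7.19. UGT71B6 was 1.24-fold higher, at 3.51 and 3.82, and UGT71B8 was at 3.30 and 3.11. UGT71B7 was not analysed here.

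**Figure D3:**
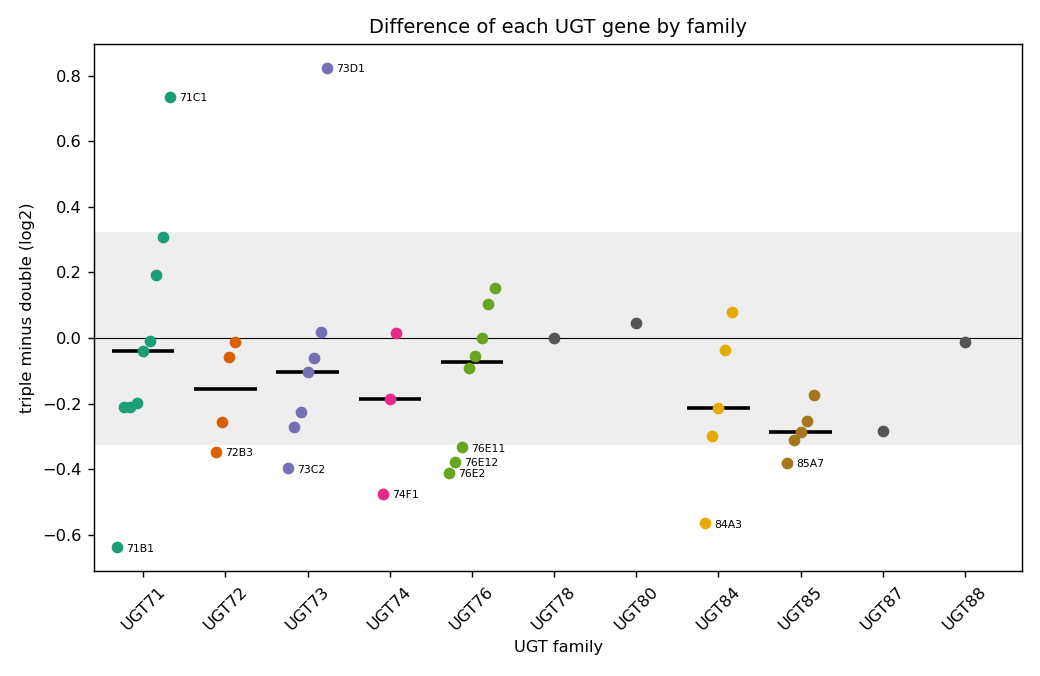
Difference of each UGT gene, triple minus double (log2, vertical axis), by family (horizontal axis). Each dot is 1 gene, black bars are medians of families with at least 3 genes, the grey band covers differences under 0.32, and genes outside it are labelled by family, letter and number. All UGT72 and UGT85 dots lie below 0, while UGT71 spans -0.64 to 0.74.

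The last 4 families were represented by 1 gene each. UGT87A2, which affects flowering time, went from 7.97 to 7.69, a difference of -0.28. UGT88A1 was at 9.29 and 9.28. UGT80B1, a sterol glucosyltransferase of the seed coat known as TT15, was at 8.0 and 8.05. The flavonol arabinosyltransferase UGT78D3 was at 3.28 on both arrays.

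Grouped by substrate, hormones did not move as one. All 3 auxin genes, UGT84B1, UGT74D1 and UGT84B2, were lower, with a median of -0.19, and none was 0.32 apart. All 3 cytokinin genes, UGT73C1, UGT76C2 and UGT76C1, were lower with a median of -0.093. Of 4 genes for salicylic acid and related benzoates, UGT74F1 was 0.48 lower on the log2 scale, UGT76B1 and UGT71C3 were 0.15 and 0.19 higher, and UGT76D1 was equal. Beside these counts, 50.3% of all genes were lower. Of the 3 flavonoid genes among the 45, UGT73B1 was at -0.27, UGT78D3 at 0.0 and UGT71C1 at 0.74.

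Of 6 genes with a UGT number in RefSeq but outside the 45, 5 were lower and 1 was higher, where 50.3% of all genes were lower. Glycosyltransferase genes without a UGT number as RefSeq symbol or synonym were not looked for. UGT78D1 went from 8.96 to 8.53 and UGT78D2 from 9.09 to 8.67, and UF3GT, which is UGT79B1 by its other name, from 8.33 to 7.70. With UGT numbers only as synonyms in RefSeq, the sterol glucosyltransferase SGT, or UGT80A2, went from 8.56 to 8.33, and GT72B1, or UGT72B1, from 9.02 to 8.81. AT5G54010, or UGT79B6, a flavonol glycoside enzyme of pollen, was low, at 3.39 and 3.56. Another 3 probe sets name a UGT gene together with a second gene and differed by -0.014, -0.13 and -0.16.

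Neighbouring UGT genes had like differences in some groups and unlike ones in others. By the order of protein-coding genes in RefSeq, 29 of the 45 genes lie in 12 groups in which each member is at most 5 genes from the next, and 16 lie alone. All members were lower in 5 groups, 7 groups held higher and lower members, some of them close to 0, and no group was higher throughout. Over the 45 genes 33 were lower, and 8 of the 12 groups were pairs. An effect of position on these counts was not tested. On chromosome 1 UGT85A7, UGT85A2, UGT85A5 and UGT85A3 follow each other within 4 genes and were all lower, between -0.38 and -0.17. UGT76E12 and UGT76E11 on chromosome 3 differed by -0.38 and -0.33, although UGT76E12 was low and UGT76E11 was not.

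In other groups the range was wider. UGT71B1, UGT71B6 and UGT71B8, within 6 genes of each other on chromosome 3, were at -0.64, 0.31 and -0.20. UGT73D1 and UGT73C7, which are adjacent on chromosome 3, were at 0.82 and -0.061, and the adjacent UGT71C1 and UGT71C2 on chromosome 2 at 0.74 and -0.039. The range within a group had a median of 0.33 and reached 0.95, and it was over 0.5 in 5 of the 12 groups. UGT genes were lower in most cases on each of the 5 chromosomes, in 8 of 11, 9 of 12, 7 of 10, 4 of 5 and 5 of 7 from chromosome 1 to chromosome 5. Over all genes 50.3% were lower, and that share was not taken by chromosome. The upper end of chromosome 1 holds UGT72B3, at -0.35, and the trio UGT71C5, UGT71C4 and UGT71C3, at -0.21, -0.0082 and 0.19.

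**Figure D4:**
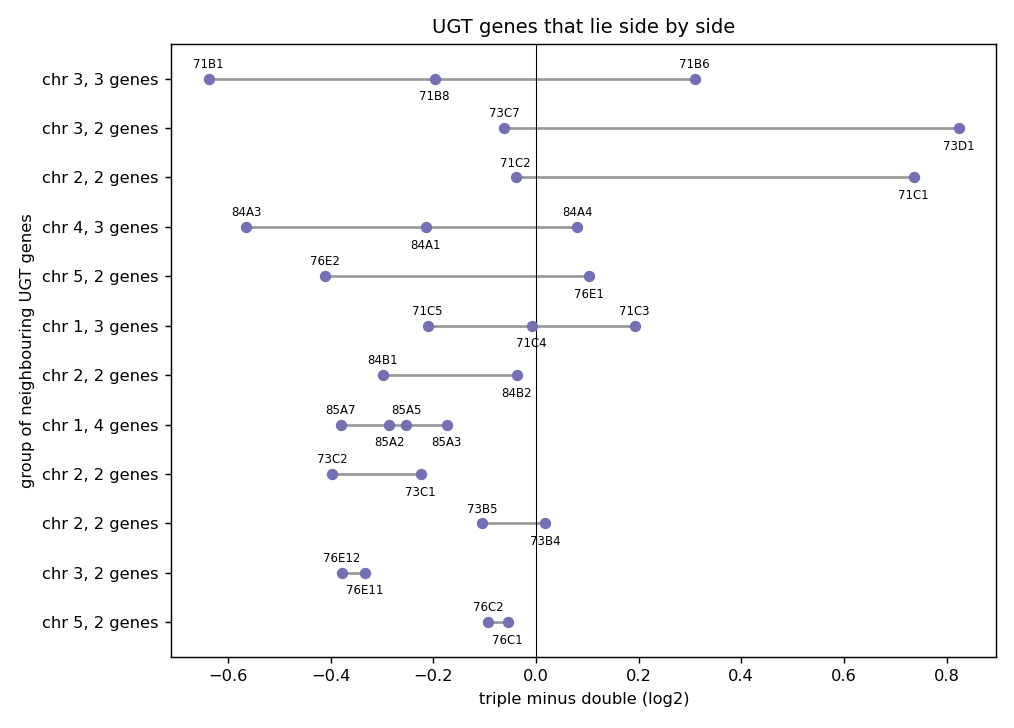
Differences, triple minus double (log2, horizontal axis), of the 29 UGT genes that lie in 12 groups of neighbours. Each row is 1 group, each dot 1 gene labelled by family, letter and number, and rows are ordered by their range. The UGT85A row lies wholly below 0, while the rows of UGT71B1, UGT73D1 and UGT71C1 span over 0.7.

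The beta-glucosidases named BGLU, enzymes of the kind that take sugars off such conjugates, went both ways, as all genes did. Of 20 BGLU genes 10 were lower and 10 higher, with a median of -0.0041. Over all genes 50.3% were lower, with a median of -0.0034. At or above 5.71 the BGLU median was -0.057 over 8 genes, 5 of them lower, beside -0.10 over 24 UGT genes, so the families were closer there. Among all genes in that range 46.5% were lower, with a median of 0.015. By at least 0.32, 6.51% of all 13286 genes were lower and 6.79% higher. BGLU47 was lower by at least 0.32, from 6.01 to 5.67. BGLU28 and BGLU33 were higher by at least 0.32, from 4.53 to 5.27 and from 6.99 to 7.52, and BGLU24 was at -0.31. The difference between both families was not tested, since each genotype has 1 array.

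**Figure D5:**
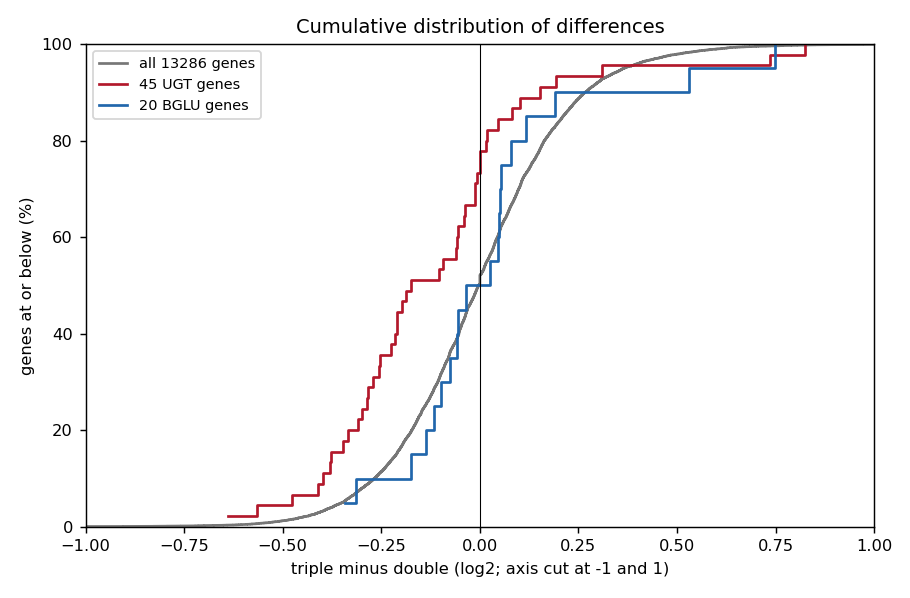
Share of genes (%, vertical axis) with a difference, triple minus double (log2, horizontal axis), at or below each value, for all 13286 genes (grey), the 45 UGT genes (red) and 20 BGLU genes (blue). At 0 the red line stands well above the grey one, and its median lies at -0.17, while the blue line has its median at -0.0041.

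The lists of genes around the UGT reaction were measured in few members. Of 25 genes that supply UDP-sugars, USP, a pyrophosphorylase for several sugars, was the one analysed and differed by 0.069. Of 19 phenylpropanoid enzymes, 2 were analysed. ALDH2C4, which oxidises sinapaldehyde and coniferaldehyde, differed by -0.0045 and HCT, a shikimate ester enzyme of lignin synthesis, by 0.0465. BSMT1, which makes methyl salicylate, was low, at 2.92 and 3.14, and was the one of 6 salicylate genes analysed. The lists of 12 glucosinolate enzymes and 7 cytokinin oxidases had no gene analysed here.

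Markers of green tissue and root were measured on both arrays, and the root markers differed between them. Green tissue markers RCA, LHCB4.2 and PRK were above 11.9 on both arrays and differed by 0.10, 0.11 and -0.0265, and the sum of their unlogged levels was 24175 on the double and 25352 on the triple array. All 5 root markers were higher in the triple expressor, where 47.9% of all genes were. They differed by 0.16 for PYK10, 0.27 for AT3G01190, 0.40 for EXPA18, 0.46 for EXPA7 and 0.50 for AT4G26010. Higher by at least 0.32 were 3 of them, beside 6.79% of all genes. Their summed level was 8330 and 9483, most of it from PYK10, at 12.86 and 13.02. ICL, PAP85 and OLEO3, the genes listed as seed markers, were low and differed by -0.71, 0.18 and -0.091. Their summed level was 68.3 and 52.6, and the fall in it came from ICL, at 5.37 and 4.66. In bulk seedlings a changed share of a cell type and a changed amount of RNA per cell cannot be told apart. The part of these markers in the UGT differences was not tested.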

How the data were processed

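RNA of 2 genotypes was hybridised to Affymetrix arrays, 1 each. The deposited values are log2 expression levels of 22810 probe sets, to which the authors had applied RMA, per the submitters' processing notes. Its version is not stated there, and the log2 scale was read from the range of 2.39 to 14.3. Groups came from the sample titles.

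The 64 Affymetrix controls were left out. Genes were named through the platform annotation, which can be old. It lists 13513 probe sets with 1 gene, 13436 of them matched to RefSeq (TAIR10.1), and 503 with several. A gene was represented by its brightest probe set. No UGT gene had a second one, and none of these probe sets is marked as cross-hybridising. RefSeq coordinates were used for gene order only. No model was fitted. Alternatives were other centrings, floors, folds, probe set rules and a damped scale, on which 32 was added to every unlogged value. The counting was tested on simulated data with shifts larger than any UGT difference here. Differences of the size reported, and false calls, were not tested in this way. Computations used Python 3.11.15, numpy 2.4.6, pandas 2.3.3, statsmodels 0.14.6 and matplotlib 3.10.9. By rule every UGT gene was named, with up to 4 genes per other list. All 5 root markers were named beyond that, as were all 6 genes with a UGT number outside the 45.

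Members, lists and folds were chosen with earlier results of these data known. Spread by level is taken in 20 bins of mean level. UGT, promoter and protein sequences were not used here.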

Additional observations from a re-analysis of the deposited data

How the results depend on the processing

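Over the alternatives run, the UGT median ranged from -0.21 to -0.058 around -0.17 and stayed below 0. It was -0.10 over the 24 genes at or above the 40th percentile, -0.058 over the 15 above the 60th, -0.074 on the damped scale, and -0.21 with each array centred on its own median, a choice made after seeing the data that shifts each difference by 0.034 downwards. Under that centring 37 UGT genes were lower and 8 higher, beside 57.8% of all genes lower in place of 50.3%. The 9 lower and 2 higher genes became 3 and 1 above the 40th percentile and 2 and 0 above the 60th, where fewer genes are counted. Of all 7262 genes at or above the 40th percentile, 337 were lower and 550 higher by at least 0.32. The UGT counts rose to 10 lower and 3 higher with a smooth centring along the mean level, beside 828 and 901 of all genes. They were 11 and 2 with each array on its own median, beside 1152 and 721 of all genes. The UGT lower count was 2 on the damped scale and 1 at 1.5-fold, and no UGT gene passed 2-fold in either direction (0 and 0). Of all 13286 genes, 187 were lower and 381 higher by at least 0.32 on the damped scale. On the damped scale the UGT84 and auxin medians were both -0.078, and the abscisic acid median was -0.044. UGT71 had a median of -0.21 over 3 genes above the 60th percentile, and BGLU one of -0.057 over 8 above the 40th. Of 309 values of single genes recomputed, 5 moved further than the spread at the gene's level. All 5 were on the damped scale, where UGT73D1 was at 0.41. Most of the 309 could not move, since floors only drop genes and the median centring and probe set rules changed no value. The shift of 0.034 is smaller than any spread at the level of a UGT gene. That left the damped scale and the smooth centring along the mean level. None of the genes at least 0.32 apart changed sign, but some values near 0 did. With the smooth centring UGT84B2 went from -0.0373 to 0.0023 and UGT73B4 from 0.0175 to -0.0044. With each array on its own median UGT73B4 was at -0.0165, and UGT74B1 went from 0.015 to -0.019. The BGLU median went from -0.0041 to 0.0079 with the smooth centring and to 0.0007 on the damped scale. Counting each group of neighbours once, also chosen after seeing the data, gave -0.16 over 28 units. Over the 22746 gene probe sets, differences have a median of 0.0, so centring on it changed nothing, and the probe set rules changed no UGT gene. Low signal limits the 21 low genes, of which 6 were among the 9 lower ones. No paired analysis was possible because there is 1 array for each genotype, and no replicate could be left out.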
